A study of Mus musculus with 45 samples.

Results

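Integrins are the receptors by which cells hold on to the extracellular matrix, and a set of cytoplasmic adaptor proteins joins them to actin. The genes described here are 39 mouse members of that machinery, taken by their listed symbols: 13 integrin α subunits, 8 integrin β subunits and 18 adaptors of the adhesion site. All 39 were matched by Ensembl gene identifier among the 54838 genes of the deposited count table. Their mRNA levels were followed across 15 PyMT+ mammary tumour cell lines.

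An integrin is a pair of 1 α and 1 β subunit, and the pair sets the ligand: α2β1 binds collagen, α3β1 and α6β4 bind laminins, α5β1 and the αv integrins bind fibronectin or other RGD-bearing ligands, and α4β7 and αEβ7 are best known from lymphocytes. Talins and kindlins bind the β subunit tail and switch the receptor on. ILK, PINCH (Lims1, Lims2) and parvins form a complex behind it, vinculin and zyxin link it to actin under tension, FAK (Ptk2) and paxillin signal from it, and tensins bind mature adhesions. In mammary epithelium α6β4 anchors the basal side of the cell to laminin in hemidesmosomes.

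The lines carry polyoma middle T antigen, which in the MMTV-PyMT mouse is driven in mammary epithelium. There were 2 parental lines from primary mammary gland tumours, YEJG and YEJH, and 13 lines recovered after transplantation: 1 fat-pad tumour line (YEJG-FP) and 2 lung lines (YEJG-M1, YEJG-M2) of YEJG origin, and 5 fat-pad (YEJH-FP1 to FP5) and 5 lung lines (YEJH-M1 to M5) of YEJH origin. The labels give whole lung as the source of the lung lines, except YEJH-M3, which is labelled lung metastases. Each line was sequenced as 3 technical repeats, so the line is the replicate, and each origin rests on a single parental line. The design compares lung with fat-pad lines, derived lines of the 2 origins, and derived with parental lines, and these comparisons share lines.

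The 45 libraries held between 9723860 and 16943900 reads on genes. Levels are given as CPM, counts scaled to a common total of reads on genes with TMM factors, averaged over the 3 repeats of a line, and a count of 0 in a library allows up to between 0.173 and 0.315 CPM, counting error only. 1 repeat of YEJG-M1 has a library name that reads YEJH_M1. Its Itgb7 level, 208 CPM, lay beside the 198 and 190.5 CPM of the other repeats of YEJG-M1 and far above the 5.04 CPM of line YEJH-M1. Repeat 2 of YEJH-M3 stood apart from the other repeats of its line, with a chi-square per gene of 71.5 and 103.6 against at most 38.3 for any other pair of repeats. In it Parvb read 24.5 CPM (6.26 and 6.35 in the other repeats), Zyx 238 (155 and 148) and Tns2 52.0 (25.7 and 25.98). Without this library, a choice made after the values were seen, 0, 23, 0, 11 and 7 members passed in the comparisons by site, by origin, by site within YEJH, by the site-by-origin term and of derived with parental lines, where 0, 22, 0, 11 and 7 passed with it, and every call made with it was kept. Luminal markers were strong in all lines, with a summed level of 7 genes (Krt8, Krt18, Krt19, Epcam, Cdh1, Elf5, Esr1) of 4083 to 7200 CPM outside the YEJG lung lines and 2712 and 3092 CPM within them, and Elf5 was at or near 0 throughout. The summed fibroblast list (7 genes) was 77.3 and 88.4 CPM in the YEJG lung lines against 1.98 to 11.9 CPM in the other 13, carried by Pdgfra and Pdgfrb. Its collagens also averaged higher in YEJG-derived than in YEJH-derived lines. Means were 1.83 against 0.246 CPM for Col1a1, 3.27 against 0.578 CPM for Col1a2 and 2.82 against 0.0468 CPM for Col3a1. Lum had no read in any library and Dcn stayed at 0.210 CPM or less. The summed leukocyte list (10 genes) was 4.16 and 7.22 CPM in the YEJG lung lines and 2.92 to 5.86 CPM in the other 13, with Cd3e at 0. The lung epithelium list (7 genes) summed to 19.4 to 53.9 CPM in YEJH-derived, 2.50 to 15.1 CPM in YEJG-derived and 19.2 to 22.2 CPM in parental lines, most of it Foxj1, while Sftpc, Sftpb and Sftpa1 had no read. The endothelial list (6 genes) stayed between 3.91 and 7.403 CPM. The basal list (7 genes), nearly all of it Krt14, was 138 and 149.9 CPM in the YEJG lung lines, 210.3 to 496 CPM in the other derived lines and 746 and 1368 CPM in the parental lines. In bulk RNA, fewer cells of a type and less RNA per cell cannot be told apart.

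The laminin receptors and their common β1 partner dominated the set. Levels of different genes were compared as RPKM, CPM per kilobase of exon. Itga3 (α3, a laminin receptor subunit) had the highest mean, 236 ± 45.04 RPKM (SD, n = 15 lines), and Itgb1 (β1, the partner of most α subunits) followed at 211 ± 36.3 RPKM. Itga3 was above Itgb1 in 13 of 15 lines, so this order was not the same in every line, whereas Itgb1 was above Itgb4 in all 15. Itgb4 (β4) averaged 112 ± 40.7 RPKM with a range of 26.7 to 173 RPKM. Tln1 (talin 1, 78.6 RPKM), Itga6 (α6, 60.9 RPKM), Vcl (vinculin, 58.4 RPKM) and Ilk (integrin-linked kinase, 39.3 RPKM) came next. Tns4 (32.0 RPKM), Tns3 (31.1 RPKM) and Itgav (αv, 25.5 RPKM) closed the 10 highest. The order of Tns4 and Tns3 held in 11 of 15 lines and that of Ilk and Tns4 also in 11, so these neighbours were not separated line by line. For Ilk, 77.4% of the exon bases are also exon of Taf10 on the other strand, and the library kit keeps no strand. Reads on these bases may be counted for the wrong gene or left out, so its level may be too high or too low.

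**Figure D1:**
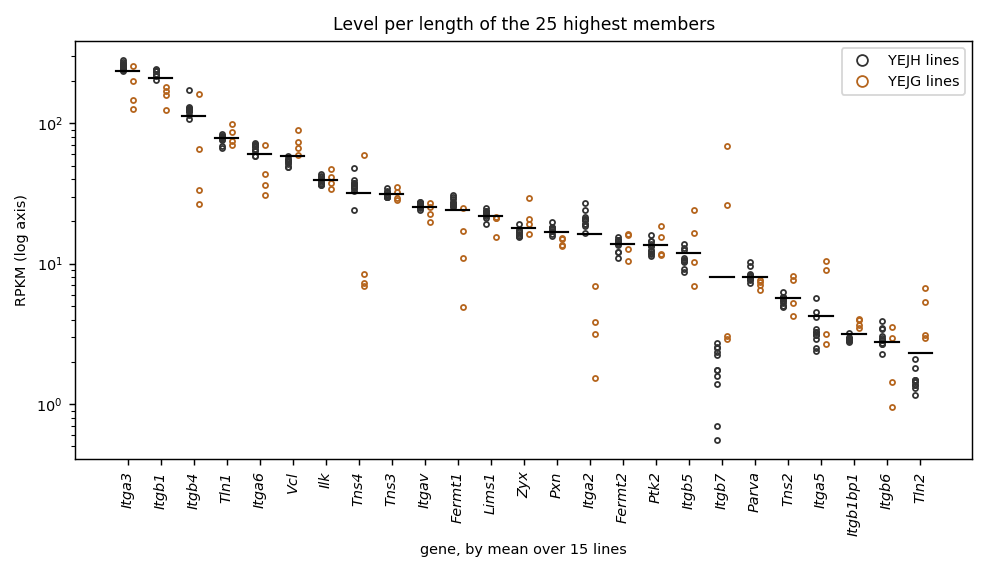
RPKM of the 25 highest members in each of 15 lines on a log axis. Open points are lines of YEJH (grey) or YEJG (brown) origin and bars are the mean over 15 lines. Itga3 and Itgb1 lead, and Itgb4, Tns4, Itga2 and Itgb7 show YEJG lines far from the others.

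At the other end, Itga4 had no read in any of the 45 libraries, and Itgae, Itga9 and Itga11 stayed at or below 0.224 CPM in every line, and these 4 were not tested in any comparison, nor was Itga1 by site or Lims2 by site within YEJH. Itga4 and Itgae encode the α subunits known to pair with β7. 9 of 39 members averaged under 1 CPM. The remaining 30 averaged 1 CPM or more. For those 30 the median SD between repeats of a line was 0.12 on the log2 scale, and the median SD among the 10 YEJH-derived lines was 0.11. Over all 13 derived lines the median SD was 0.32.

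Derived lines of the 2 origins differed in many members. Comparing 3 YEJG-derived with 10 YEJH-derived lines with site in the model, 22 of the 35 members tested passed an adjusted p of 0.05 by edgeR's quasi-likelihood test (62.9%), against 40.8% of the 15815 genes tested. 10 members were higher in YEJG-derived lines, where 19.2% of all genes were, and 12 were lower, where 21.6% were. These counts include Itga1 and Lims2, which passed the expression filter only with the YEJG lines, where they were high. Among the 33 members that also passed it in YEJH lines alone, 20 were called (60.6%, 8 higher and 12 lower), against 41.7% of 14990 such genes. The median log2 fold change was 0.09 over the members and 0.00315 over all genes. By role, 2 of 9 tested α subunits were higher and 4 lower, 2 of 8 β subunits higher and 3 lower, and 6 of 18 adaptors higher and 5 lower. Line ranges of the 2 origins did not overlap for 15 of 35 members, 42.9%, against 24.2% of all genes. The 15 include Lims2, which entered through the YEJG lines.

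**Figure D2:**
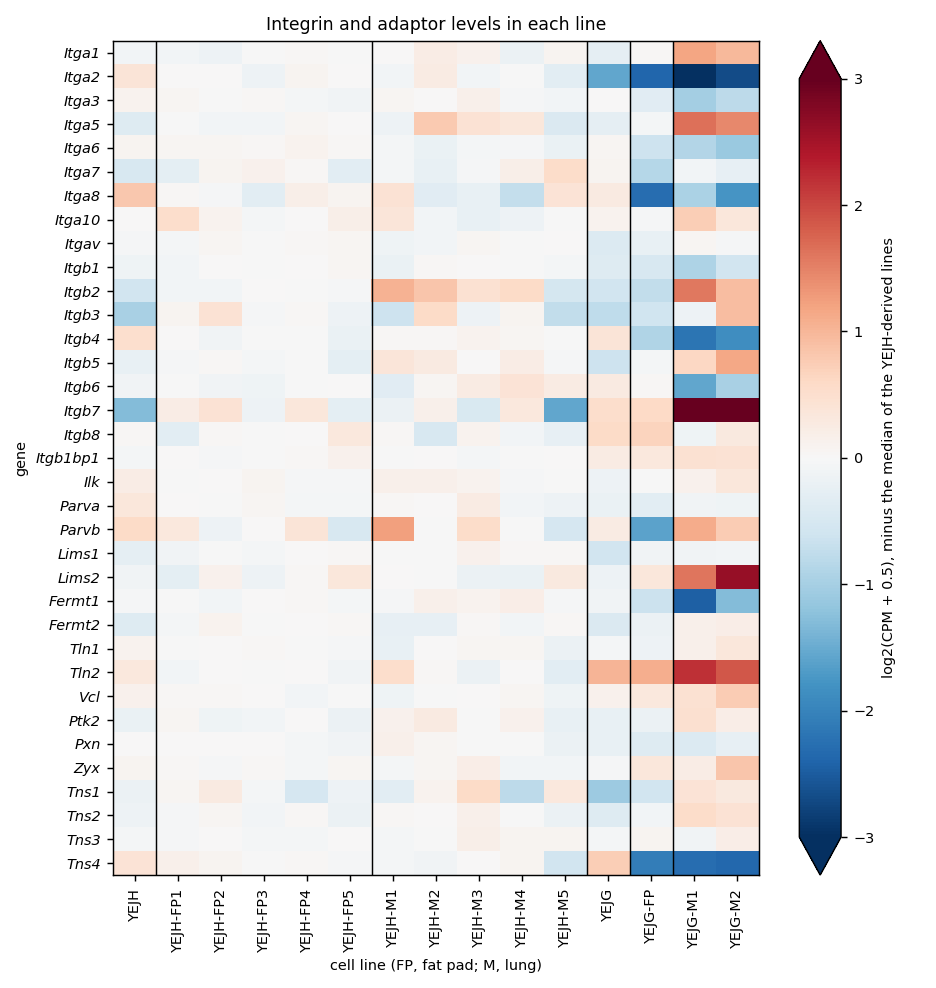
Level of the 35 tested members in each of 15 lines, as log2(CPM + 0.5) minus the median of the 10 YEJH-derived lines. Red is higher and blue lower, and colours saturate at 3. Most colour stands in YEJG-FP, YEJG-M1 and YEJG-M2, with Itgb7, Lims2 and Tln2 high and Itga2, Tns4 and Itgb4 low.

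Itga2, Itga8, Itga6 and Itga3 were the α subunits lower in YEJG-derived lines. Itga2 (α2, collagen receptor) stood at 27.6 CPM in YEJG-FP, 11.01 in YEJG-M1 and 22.4 in YEJG-M2, and at 117 to 173 CPM (median 147) in the YEJH-derived lines. The ranges were apart, and Itga2 was 7.14-fold lower (log2 -2.84 ± 0.21 SE, adjusted p = 2.8e-06). The YEJG parental line was already low at 49.3 CPM, against 192 CPM in the YEJH parental line. Itga8 (α8, an RGD-binding subunit) was 4.12, 11.3 and 6.13 CPM in the 3 YEJG-derived lines and 13.2 to 30.1 CPM in the YEJH-derived lines (log2 -1.66 ± 0.32 SE, adjusted p = 0.0012). Itga6 (α6, laminin receptor) was 496, 413 and 354 CPM against 661 to 824 CPM, a difference of -0.82 ± 0.06 SE on the log2 scale (adjusted p = 2.8e-06). For Itga3 the 3 lines held 1174, 730 and 855 CPM and the YEJH-derived lines 1373 to 1651 CPM (log2 -0.69 ± 0.10 SE, adjusted p = 0.000177). For each of these 4 genes every YEJG-derived line lay below every YEJH-derived line.

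Higher levels were measured for Itga5 (α5, the fibronectin receptor subunit), which was 16.7 CPM in YEJG-FP, 55.8 in YEJG-M1 and 48.3 in YEJG-M2, against 12.7 to 30.2 CPM (median 17.4) in the YEJH-derived lines. Only the lung lines of YEJG origin stood above that range, and the fold change was 1.86 (log2 0.90 ± 0.26 SE, adjusted p = 0.014). In YEJH-M3 the library that stood apart read 37.8 CPM and the other repeats 17.2 and 16.7 CPM, and without that library the difference was 0.98 ± 0.27 SE (adjusted p = 0.010). Itga1 (α1, a collagen receptor subunit) was 0.193, 1.03 and 0.810 CPM against 0.0917 to 0.282 CPM, so that YEJG-FP lay inside the YEJH range. It did not pass the expression filter among YEJH lines and entered the comparison through the lung lines in which it was high, so its difference (log2 1.71 ± 0.33 SE) is given as a description. Without both YEJG lung lines it was 0.38 ± 0.54 SE. Itgav, at 277 to 335 CPM in YEJG-derived and 297 to 338 CPM in YEJH-derived lines, gave log2 -0.08 ± 0.06 SE (adjusted p = 0.308). Itga7 gave -0.66 ± 0.26 SE (adjusted p = 0.062) and Itga10 0.63 ± 0.36 SE (adjusted p = 0.189).

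Itgb4 and Itgb7 were the β subunits furthest apart. Itgb4, the partner of α6 in hemidesmosomes, was 474 CPM in YEJG-FP, 193 in YEJG-M1 and 243 in YEJG-M2, and 777 to 950 CPM in the 10 YEJH-derived lines. It was 2.96-fold lower (log2 -1.56 ± 0.19 SE, adjusted p = 5.9e-05), while the parental lines stood close together, at 1161 CPM in YEJG and 1251 CPM in YEJH. Itgb1 was 1008, 746 and 950 CPM against 1222 to 1454 CPM (log2 -0.63 ± 0.07 SE, adjusted p = 3.3e-05). Itgb6 (β6, an epithelial αv partner) was 21.8, 6.94 and 10.6 CPM against 16.6 to 28.4 CPM, so that only the YEJG lung lines were outside the range (log2 -0.79 ± 0.25 SE, adjusted p = 0.024).

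Itgb7 (β7, known from lymphocyte homing) was 8.93 CPM in YEJG-FP, 199 in YEJG-M1 and 76.3 in YEJG-M2, and 1.62 to 7.94 CPM in the YEJH-derived lines. The fitted fold change was 15.2 (log2 3.92 ± 0.67 SE, adjusted p = 0.00054), and it changed to log2 2.86 without YEJG-M1 and 4.80 without YEJG-FP. The YEJG parental line held 8.47 CPM and the YEJH parental line 2.04 CPM. Of the 10 listed leukocyte genes, Ptprc and Cd3e were at 0.247 CPM or less in every line. Itgb2, the leukocyte β subunit, was 4.93 CPM in YEJG-M1, the highest of all lines, and 2.92 CPM in YEJG-M2. It was 0.589 to 3.23 CPM in the other 13 lines. The α partners Itga4 and Itgae were at or near 0, as given above. The summed leukocyte list was 4.16 and 7.22 CPM in the YEJG lung lines, the latter the highest of all lines, and 2.92 to 5.86 CPM in all other lines. Its part in the Itgb7 difference was not tested. Itgb5 (β5, an αv partner) was 72.7, 117 and 169 CPM against 61.8 to 97.2 CPM (log2 0.49 ± 0.15 SE, adjusted p = 0.019). Itgb8, Itgb2 and Itgb3 gave log2 0.42, 0.34 and 0.33 with adjusted p of 0.066, 0.519 and 0.715.

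Among adaptors, kindlin 1 and tensin 4 were lower. Tns4 (tensin 4) was 43.5, 37.6 and 35.8 CPM in the YEJG-derived lines and 125 to 204 CPM in the YEJH-derived lines, 4.59-fold lower (log2 -2.20 ± 0.11 SE, adjusted p = 4.5e-07, the smallest of all members). The YEJG parental line held 309 CPM, above the 248 CPM of the YEJH parental line. Fermt1 (kindlin 1, the epithelial kindlin) was 100.2, 28.6 and 64.0 CPM against 149 to 181 CPM (log2 -1.35 ± 0.24 SE, adjusted p = 0.00082). Pxn (paxillin) was 136, 132 and 148 CPM against 156 to 196 CPM (log2 -0.35 ± 0.06 SE, adjusted p = 0.00075). Smaller differences in the same direction passed the test for Parva (α-parvin, log2 -0.21 ± 0.07 SE, adjusted p = 0.027) and Lims1 (PINCH1, log2 -0.14 ± 0.04 SE, adjusted p = 0.0099).

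Talin 2, vinculin and zyxin were higher. Tln2 (talin 2) was 57.1, 124 and 98.4 CPM against 21.4 to 38.4 CPM, 3.29-fold higher (log2 1.72 ± 0.17 SE, adjusted p = 2.0e-05), and 54.2 CPM in the YEJG parental line against 33.4 CPM in the YEJH one. Vcl was 567, 630 and 772 CPM against 417 to 475 CPM (log2 0.52 ± 0.08 SE, adjusted p = 0.00021), and 24.6% of its exon bases are shared with Ap3m1 on the other strand. Zyx was 198, 181 and 279 CPM against 147 to 180 CPM (log2 0.47 ± 0.10 SE, adjusted p = 0.0027). Itgb1bp1 (ICAP-1, which binds the β1 tail) was 24.4, 26.9 and 26.4 CPM against 18.5 to 21.1 CPM (log2 0.40 ± 0.05 SE, adjusted p = 8.0e-05), with 34.1% of its exon bases shared with Asap2 on the other strand. Every YEJG-derived line was above every YEJH-derived line for these 4 genes. Tns2 (tensin 2) gave log2 0.30 ± 0.10 SE (adjusted p = 0.030). Lims2 (PINCH2) was 0.396, 1.65 and 3.86 CPM against 0.0789 to 0.390 CPM. It too missed the expression filter among YEJH lines and was tested through the lines in which it was high, so its log2 difference of 2.89 ± 0.53 SE (3.67 without YEJG-FP and 2.07 without YEJG-M2) is a description. The other 7 adaptors tested, Ilk, Parvb, Fermt2, Tln1, Ptk2, Tns1 and Tns3, lay between log2 -0.02 and 0.14.

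**Figure D3:**
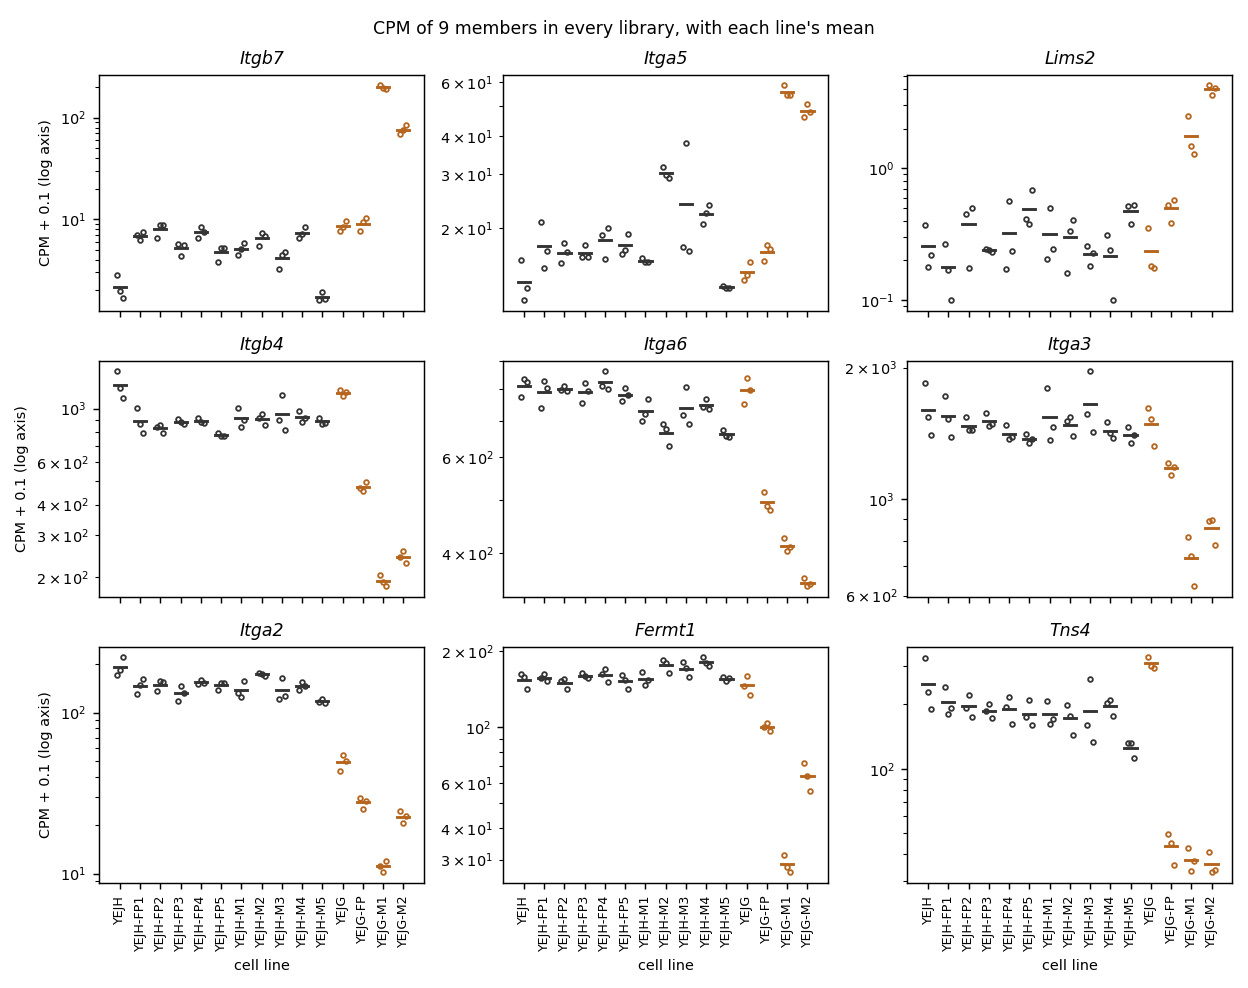
CPM plus 0.1 on a log axis of 9 members in every library of the 15 lines. Open points are technical repeats, bars the line mean, grey YEJH and brown YEJG origin, and axes differ between genes. Itgb7 and Itga5 stand high in YEJG-M1 and YEJG-M2 alone, whereas Tns4 and Itga2 are low in all 3 YEJG-derived lines.

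In the fat-pad lines alone, a choice made after the values were seen, 1 YEJG line stands against 5 YEJH lines and has no spread of its own, so the differences are given as values. Itga5 (log2 -0.062 ± 0.078 SE), Tns2 (-0.065 ± 0.085 SE) and Itgb6 (0.060 ± 0.071 SE) then had the opposite sign. Itgb7 gave 0.47 ± 0.26 SE, Lims2 0.77 ± 0.65 SE, Itgb5 0.0011 and Lims1 -0.11. The values of Itga2 (-2.42), Itga8 (-2.43) and Tns4 (-2.13) in this line lay on the same side as in the full comparison.

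**Figure D4:**
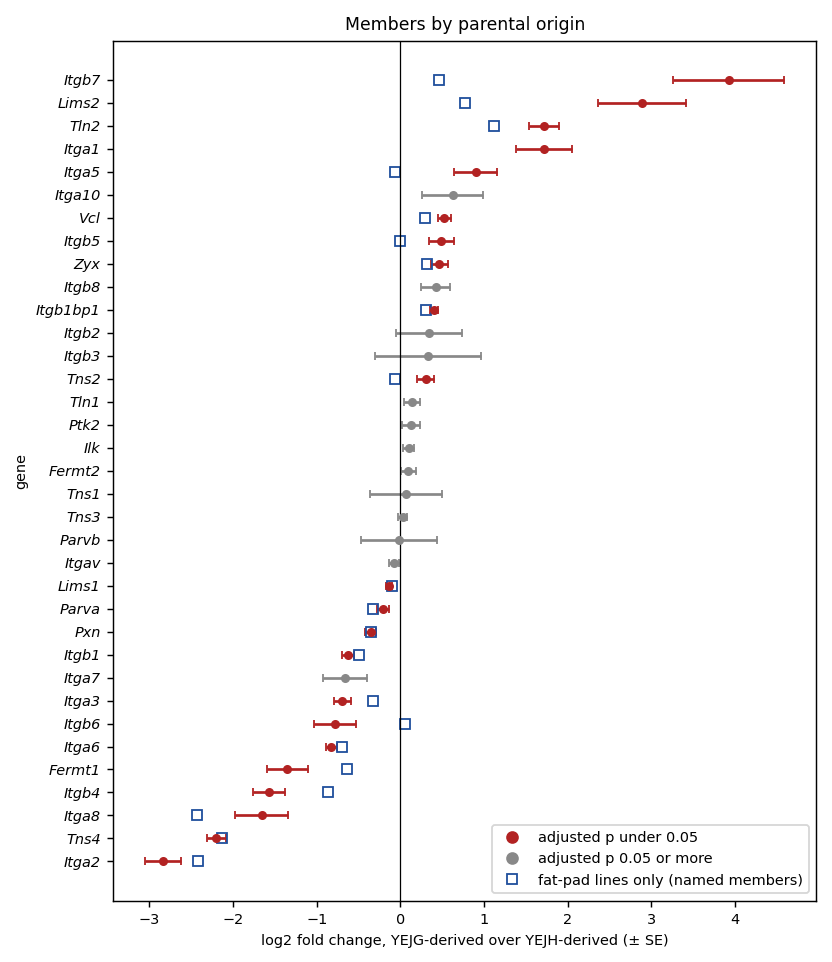
Log2 fold change of YEJG-derived over YEJH-derived lines for 35 members, with its SE. Red circles passed an adjusted p of 0.05, grey ones did not, and open blue squares give the named members from fat-pad lines alone. Itga5, Itgb5, Itgb6, Itgb7 and Tns2 have their squares near 0, whereas those of Itga2, Tns4 and Itga6 lie near their circles.

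Single lines decided several of the smaller calls. Without YEJG-M1 the adjusted p was 0.085 for Itga5, 0.157 for Itgb6, 0.139 for Tns2 and 0.067 for Lims1. Without YEJG-M2 it was 0.055 for Itga5, 0.147 for Itgb5, 0.129 for Itgb6, 0.102 for Tns2 and 0.064 for Lims1. Parva missed the threshold without YEJG-FP (0.188) or YEJH-M2 (0.0505), and Tns2 without YEJH-M4 (0.051). Itgb6 moved to log2 -1.43 without YEJG-FP. Without the repeat of YEJG-M1 that carries another line's name, Lims1 had an adjusted p of 0.131. The fall of the luminal list and the rise of the fibroblast list in the YEJG lung lines moved with these differences, and their part in the result was not tested.

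The genomic start of 3 of the genes that moved furthest or reversed is shown so that the measured mRNA can be placed on the genome. RefSeq gives promoter windows, 250 bases before to 50 after the transcript start on build GRCm38.p6, for 27 of the 39 members, and not for Itga6, Itga7, Itgae, Itgb2, Itgb3, Itgb4, Parva, Lims2, Tln2, Ptk2, Pxn or Tns4. The windows are written on the strand of the gene, here the minus strand for all 3, at chr15:102231886-102232185 for Itgb7, chr15:103366742-103367041 for Itga5 and chr13:114932051-114932350 for Itga2. Capitals mark GGGCGG, the core of a GC box, on either strand. This window of Itgb7, the member with the largest fold change by origin, holds none.
Itgb7: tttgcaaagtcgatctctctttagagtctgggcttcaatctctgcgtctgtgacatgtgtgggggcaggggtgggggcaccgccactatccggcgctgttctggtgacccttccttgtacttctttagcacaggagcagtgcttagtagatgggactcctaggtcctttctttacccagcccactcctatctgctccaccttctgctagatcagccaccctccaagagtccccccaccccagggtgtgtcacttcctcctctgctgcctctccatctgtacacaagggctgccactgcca
Itga5: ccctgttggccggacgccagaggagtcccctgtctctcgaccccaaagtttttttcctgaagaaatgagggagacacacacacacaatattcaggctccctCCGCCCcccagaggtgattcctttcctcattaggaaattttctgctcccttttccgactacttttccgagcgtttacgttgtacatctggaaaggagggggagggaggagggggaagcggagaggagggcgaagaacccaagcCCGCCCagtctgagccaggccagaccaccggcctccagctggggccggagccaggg
Itga2: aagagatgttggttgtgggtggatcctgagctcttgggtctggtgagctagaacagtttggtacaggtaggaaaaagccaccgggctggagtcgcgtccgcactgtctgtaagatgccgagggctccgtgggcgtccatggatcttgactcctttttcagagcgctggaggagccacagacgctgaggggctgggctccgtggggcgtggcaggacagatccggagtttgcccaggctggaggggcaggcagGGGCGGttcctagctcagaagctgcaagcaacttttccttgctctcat
The windows of Itga5 and Itga2 hold 2 and 1 copies of GGGCGG. Of the 32 windows of the 27 members, 17 hold GGGCGG on either strand (53.1%), against 35.7% of all 32851 windows. TGANTCA (the AP-1 core) is in 3 member windows (9.38% against 7.81%), CACCTG (an E-box that snail and ZEB factors bind) in 8 (25% against 20.2%) and TATAAA in 1 (3.12% against 13.6%). None of the latter 3 is in the windows of Itgb7, Itga5 or Itga2, which says only that these letters are not there. No motif searched contains another, both strands were read, and a match describes the sequence and not a bound factor.

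Lung lines were not told apart from fat-pad lines by any member over both origins. With 7 lung and 6 fat-pad lines, 0 of 34 tested members passed by edgeR, where 0 of 15056 genes (0%) did. 6 members had an unadjusted p under 0.05, Itgb2, Itgb5, Itga5, Itgb7, Ptk2 and Lims2, and 784 genes (5.21%) did. DESeq2 called 0 members and limma, with libraries kept apart, 1, Itgb5. Itgb2 (β2, the leukocyte subunit) had the smallest p, at log2 1.21 ± 0.33 SE (adjusted p = 0.909). Its levels ran from 0.589 CPM in YEJG-FP to 4.93 CPM in YEJG-M1. Itgb5 gave 0.49 ± 0.17 SE. Itga5, at 0.79 ± 0.30 SE, was 12.7 to 55.8 CPM in the lung lines and 16.5 to 18.2 CPM in the fat-pad lines, so the groups overlapped. Itgb1 was 746 to 1439 CPM in lung lines and 1008 to 1454 CPM in fat-pad lines.

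Within YEJH origin, 5 lung against 5 fat-pad lines, no member passed. By edgeR 0 of 33 tested members passed, where 7 of 14990 genes (0.0467%, with 0.00667% higher and 0.04% lower in lung lines) did. An unadjusted p under 0.05 was found for 3 members and for 1131 genes (7.55%). Itga6 was 661, 665, 728, 737 and 748 CPM in the lung lines and 781 to 824 CPM in the fat-pad lines. Its level in lung lines was lower by 0.18 ± 0.04 SE on the log2 scale, with an adjusted p of 0.205 by edgeR. The share of all genes whose lung and fat-pad ranges lie apart within YEJH was not counted. DESeq2 called this member and no other, and limma with libraries kept apart called Itga6 and Itgb5. Itgb5 was 73.6 to 97.2 CPM in lung and 61.8 to 77.0 CPM in fat-pad lines (log2 0.23 ± 0.09 SE, adjusted p = 0.504). Itgb2 gave log2 0.78 ± 0.29 SE (adjusted p = 0.516) and passed only when YEJH-M5 was left out, the lung line where it was lowest at 0.763 CPM. Itga5 was 12.7 to 30.2 CPM in lung and 16.5 to 18.2 CPM in fat-pad lines, and Itgb1 1222 to 1439 CPM and 1325 to 1454 CPM.

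In YEJG origin the 2 lung lines differed from the single fat-pad line, and the difference between origins was tested as the site-by-origin term. 11 of 35 tested members passed (31.4%), against 13.3% of 17042 genes, 6.74% higher and 6.61% lower. The lung minus fat-pad difference was larger in YEJG for 7 of these members and smaller for 4. The YEJG side of this term rests on 1 fat-pad line, which is assumed to vary like the other groups. The median over the members was 0.37 on the log2 scale and that over all genes -0.02. Both YEJG lung lines lay outside the range of the other 13 lines for 19 of 35 members (54.3%), against 29.6% of all genes. Of these members 11 lay above and 8 below, where 14.8% of all genes lay above and 14.8% below. The 11 include Itga1 and Lims2, which passed the expression filter only with the YEJG lines, where they were high.

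Among the β subunits, Itgb7, Itgb6 and Itgb4 passed. From fat pad to lung Itgb7 changed by 3.96 ± 0.76 SE on the log2 scale in YEJG and by -0.38 ± 0.36 SE in YEJH, a difference of 4.34 ± 0.83 SE (adjusted p = 0.0052). Itgb6 changed by -1.29 ± 0.26 SE in YEJG and 0.19 ± 0.13 SE in YEJH (term -1.48 ± 0.29 SE, adjusted p = 0.0059). Itgb4 changed by -1.10 ± 0.11 SE in YEJG and 0.09 ± 0.06 SE in YEJH (term -1.198 ± 0.13 SE, adjusted p = 0.00026). The levels of Itgb4 in YEJG-FP (474 CPM) lay between those of the YEJG parental line (1161 CPM) and the lung lines (193 and 243 CPM).

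Of the α subunits, Itga5 had a term of 1.39 ± 0.41 SE (adjusted p = 0.043), Itgav of 0.31 ± 0.08 SE (adjusted p = 0.026) and Itga3 of -0.59 ± 0.12 SE (adjusted p = 0.0075). Itga3 changed by -0.56 ± 0.11 SE in YEJG and 0.03 ± 0.06 SE in YEJH. The term of Itgb1 was -0.19 ± 0.14 SE (adjusted p = 0.416), and -0.39 ± 0.11 SE (adjusted p = 0.038) without YEJG-M2. Kindlins moved in opposite directions: Fermt1 had a term of -1.21 ± 0.33 SE (adjusted p = 0.029), -0.75 without YEJG-M1 and -1.92 without YEJG-M2, whereas Fermt2 (kindlin 2, the broadly expressed kindlin) had 0.49 ± 0.13 SE (adjusted p = 0.024). Fermt2 was 91.6 and 94.1 CPM in the YEJG lung lines, above the 60.4 to 88.9 CPM of all other lines. Tln1 (0.48 ± 0.14 SE, adjusted p = 0.040), Tns2 (0.57 ± 0.13 SE, adjusted p = 0.014) and Parvb (β-parvin, 2.47 ± 0.72 SE, adjusted p = 0.040) completed the 11. Parvb was 2.39 CPM in YEJG-FP, the lowest of all lines, and 18.5 and 14.3 CPM in the YEJG lung lines, inside the 5.62 to 20 CPM of the YEJH-derived lines.

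**Figure D5:**
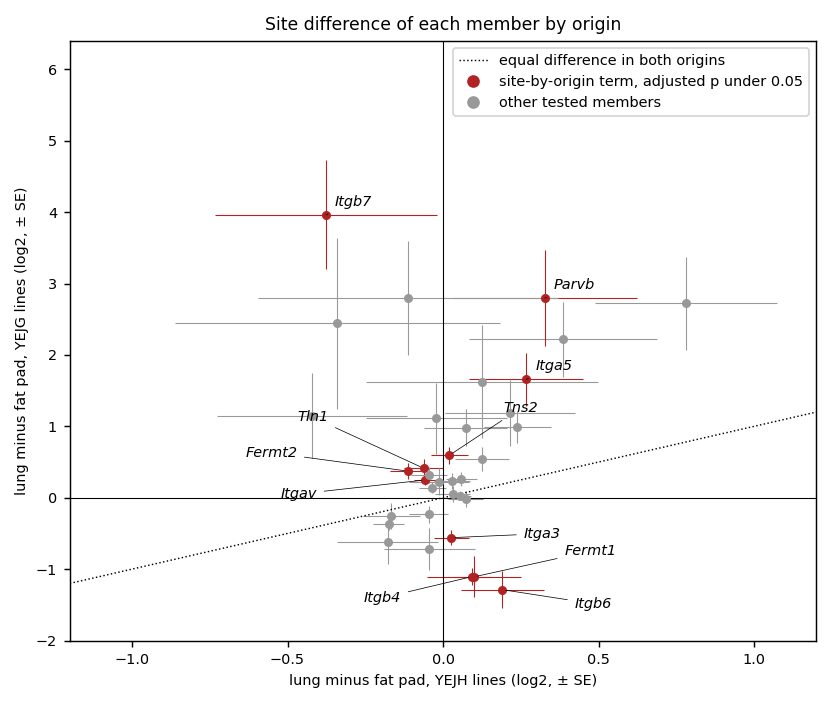
Lung minus fat-pad difference (log2, with SE) of each of 35 members in YEJH lines on the horizontal axis and YEJG lines on the vertical axis, whose scales differ. Red points passed the site-by-origin term, and the dotted line marks equal differences. Itgb7 lies at 3.96 and Itgb6 at -1.29 on the YEJG axis, while the YEJH values of all members stay within 0.78 of 0.

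Several of these terms were close to the threshold. Without YEJG-M1 the adjusted p was 0.113 for Itga5, 0.099 for Parvb, 0.061 for Fermt2 and 0.117 for Itgav, and the term of Itgb7 was 3.49. Without YEJG-M2 it was 0.054 for Itga5, 0.067 for Fermt2 and 0.130 for Tln1. Leaving out any single YEJH fat-pad line also ended the call of Itga5 (adjusted p up to 0.068) and Tln1 (up to 0.066), as did YEJH-M4 for Itga5 (0.056). Parvb missed it without YEJH-FP1, FP2, FP3, FP4, M2, M3 or M4 (0.0502 to 0.063). Without the first technical repeat of every line Tns2 had an adjusted p of 0.051, and without the last one 0.155. Itgb4, Itgb6, Itgb7, Itga3, Fermt1 and Tns2 passed whichever line was left out, other than YEJG-FP, without which the term cannot be fitted. The marker lists moved as described above, and their part was not tested.

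Derived lines were compared with their parental lines with origin in the model. 7 of 35 tested members passed (20%), 2 higher and 5 lower in derived lines, against 7.77% of 16361 genes, 3.55% higher and 4.23% lower. Tns4 fell by 1.94 ± 0.36 SE on the log2 scale (adjusted p = 0.0071), from 309 to 35.8 to 43.5 CPM in YEJG and from 248 to 125 to 204 CPM in YEJH. Itgb4 fell by 1.27 ± 0.27 SE (adjusted p = 0.013). Itga8 fell by 1.36 ± 0.32 SE (adjusted p = 0.020), from 26.6 CPM in YEJG and 39.3 CPM in YEJH. Itga2 (log2 -0.86 ± 0.23 SE, adjusted p = 0.035) and Itga6 (log2 -0.52 ± 0.15 SE, adjusted p = 0.042) also fell. In both origins every derived line was below its parental line for Tns4, Itgb4, Itga8 and Itga2. Each origin has a single parental line. The share of all genes with such an order was not counted, here or for Lims1 and Fermt2 below. The basal marker list was also lower in every derived line, at 138 to 496 CPM against 746 and 1368 CPM in the parental lines, and its part in these differences was not tested.

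The 2 members that rose were adaptors. Lims1 rose by 0.33 ± 0.05 SE (adjusted p = 0.0042), from 138 CPM in YEJG and 170 CPM in YEJH to 190 to 193 and 191 to 225 CPM, every derived line above its parent. Fermt2 rose by 0.40 ± 0.10 SE (adjusted p = 0.033), from 60.4 and 63.2 CPM to 72.8 to 94.1 and 69.5 to 88.9 CPM, again with every derived line above its parent. Itga5 gave log2 0.92 ± 0.38 SE (adjusted p = 0.155) and Itgb1 -0.09 ± 0.09 SE (adjusted p = 0.626). The 7 calls depended on the YEJG parental line: without it 0 of 35 members passed, 6 had an unadjusted p under 0.05, and Itgb1 gave 0.072. Within YEJH alone Itgb4 passed and no other member (log2 -0.48 ± 0.08 SE, adjusted p = 0.0066), where 3.40% of all genes did. Tns4 stood at -0.41 ± 0.17 SE without the YEJG parental line and at -3.003 ± 0.18 SE without the YEJH one. Itgb4 stood at -0.48 ± 0.27 SE without the former and -1.95 ± 0.29 SE without the latter. Without the YEJH parental line 13 members passed, where 13.4% of all genes did, and without YEJG-FP 14, where 13.2% did, Itga5 among them (log2 1.03 ± 0.31 SE, adjusted p = 0.041). Itga6 lost its call whichever derived line was left out except YEJG-FP or YEJH-FP4, with adjusted p of at most 0.072, and Itga2 lost it without YEJH-FP3 (0.051) or YEJG-M2 (0.056). Without the first technical repeat of every line Lims1 (0.056) and Fermt2 (0.065) missed the threshold.

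The ligands and partners of these receptors were read from lists chosen separately from the 39 members. Of 25 tested integrin ligands among 30 listed, 7 were higher and 13 lower in YEJG-derived lines, with a median log2 of -0.36. That is 80% of them, where 40.8% of all genes passed, 19.2% higher and 21.6% lower. Within YEJH lines only 22 of the listed ligands passed the expression filter, so the 25 include ligands that entered with the YEJG lines. The share without those was not counted. Tnc (tenascin C) averaged 289 CPM in YEJG-derived and 2473 CPM in YEJH-derived lines, 9.25-fold lower (log2 -3.21 ± 0.39 SE, adjusted p = 6.0e-05). Lamb3, a chain of the laminin that α6β4 binds, was 3.01-fold lower (92.9 against 275 CPM, adjusted p = 0.000115), and Npnt (nephronectin, an α8β1 ligand) was 7.22-fold lower (4.36 against 29.7 CPM, adjusted p = 0.0004). Col6a1 was 7.08-fold higher (18.2 against 2.96 CPM, adjusted p = 5.7e-06) and Col1a1 6.09-fold higher (1.83 against 0.246 CPM, adjusted p = 0.00094). Col3a1 averaged 2.82 against 0.0468 CPM. The latter is below the limit of counting, so this difference is given as a description. Of 41 tested focal adhesion partners among 44, 10 were higher and 15 lower (61% in all) with a median of -0.11, Dab2 (log2 1.84), Dlc1 (1.21) and Sorbs3 (2.98) among the higher and Fblim1 (-0.85), Kank1 (-0.77) and Fyn (-0.71) among the lower.

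In the site-by-origin term 4 partners were higher and 3 lower of 42 (16.7%, near the 13.3% of all genes), and 5 ligands higher and 4 lower of 25 (36%), led by Vcam1, the ligand of α4 integrins, at log2 2.31 ± 0.49 SE, with Col4a1 at 1.86 ± 0.27 SE, Col4a2 at 1.55 ± 0.23 SE, Npnt at -2.31 ± 0.55 SE, Tnc at -1.96 ± 0.36 SE and Cdh1, which αEβ7 binds, at -1.59 ± 0.25 SE. The partners furthest from 0 were Dab2 (1.58), Rsu1 (0.64), Pak1 (0.63), Kank1 (-0.75), Src (-0.43) and Tes (-0.26). Derived against parental lines gave 2 partners higher and 6 lower of 41 (19.5%), against 7.77% of all genes. Of 25 ligands 3 were higher and 3 lower (24%). Dlc1 (log2 1.197), Fermt3 (0.79), Col3a1 (8.84 ± 2.52 SE), Col1a2 (3.13 ± 0.89 SE) and Col6a1 (2.58) were higher. Col3a1, Col1a2 and Col6a1 averaged 2.82, 3.27 and 18.2 CPM in YEJG-derived lines. In YEJH-derived lines they averaged 0.0468, 0.578 and 2.96 CPM, that of Col3a1 below the limit of counting, so its size is a description. The rise was not split by origin here, and each origin has a single parental line. Tes (-0.46), Vasp (-0.40), Fblim1 (-0.41), Col4a2 (-1.16), Lamb2 (-0.32) and Lamb1 (-0.16) were lower. Within YEJH, Dlc1 (log2 -0.65 ± 0.08 SE, adjusted p = 0.021) and Lama4 (log2 -1.57 ± 0.19 SE, adjusted p = 0.019) were lower in lung lines, and over both origins no gene of either list differed by site. Of 6 other integrin subunits, listed for leukocytes and platelets, 1 was tested by origin and did not pass, and Itgam had no read in any library.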

How the data were processed

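RNA of 15 PyMT+ mouse lines, 3 technical repeats each, was prepared by the authors with an unstranded TruSeq v2 kit and sequenced on a NextSeq500. The authors deposited raw counts per Ensembl gene. The submitters' processing notes name FastQC, HISAT2, SAMtools 1.2 and HTSeq with GRCh38, although the identifiers are mouse. Rows naming no gene held 31.6% to 43.3% of reads and were left out. Of 54838 identifiers 50764 (92.6%) matched the mouse annotation used for symbols and exon lengths. All sample columns were used.

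Repeats were summed per line, filtered (filterByExpr), TMM-scaled and tested with edgeR 4.0.16 (quasi-likelihood test, R 4.3.3), with Benjamini-Hochberg adjustment over all genes tested and a threshold of 0.05. SE is the log2 fold change over the root of the F statistic. The procedure was tested on simulated data. Members, lists and comparisons were chosen with earlier results of these data known. Named were Itga5 and Itgb1 in every comparison, up to 15 called members per direction, where none passed the 2 of smallest p, the 10 highest by RPKM, and up to 3 list genes per direction. Other members were described after their values were seen. Repeats of a line differed by more than counting noise, so none was merged as a duplicate. Lines of 1 origin share a parent, so p-values measure spread between these lines. Library names fall into 2 sets of 22 and 23 libraries with different low-quality filtering, spread over the lines. Only 1 of 30 members with 1 CPM or more differed by over 0.1 (log2) between sets. Alternatives used DESeq2 1.42.0, limma 3.58.1, other scalings, filters and left-out lines. The RefSeq promoter table covers 27 members.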

Additional observations from a re-analysis of the deposited data

Results flagged for a closer look

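The lung minus fat-pad difference of 11 members differed between lines of YEJG and YEJH origin by the test of the site-by-origin term itself, as log2 with edgeR's adjusted p. Itgb7 (4.34), Parvb (2.47), Itga5 (1.39), Tns2 (0.57), Fermt2 (0.49), Tln1 (0.48) and Itgav (0.31) had a larger difference in YEJG lines. Itgb6 (-1.48), Fermt1 (-1.21), Itgb4 (-1.198) and Itga3 (-0.59) had a smaller one. The YEJG side holds 2 lung lines and 1 fat-pad line. In the groups of 5 lines, 0 of 66 had a lowest or highest line whose gap exceeded the critical share of 0.71, where chance would give about 5%.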

How the results depend on the processing

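Counts of members past the threshold changed by over 1.5 times in these settings. Kept apart as libraries in limma, 1 member passed for lung against fat pad, 2 within YEJH, 18 for the site-by-origin term and 15 for derived against parental lines. With the technical repeat number as a replicate block the counts were 1, 2, 18 and 16. DESeq2 gave 1 within YEJH, library set A alone gave 7 for the site-by-origin term, YEJH lines alone gave 1 for derived against parental lines, and leaving out both YEJG lung lines gave 14 by origin. Leaving out 1 line or repeat gave 0 to 0 members for lung against fat pad, 17 to 25 by origin, 0 to 1 within YEJH, 6 to 13 for the site-by-origin term and 0 to 14 for derived against parental lines. Over all genes, DESeq2 called 22 against 0 by site, 156 against 7 within YEJH and 2024 against 1272 for derived lines, and limma 96, 340 and 2696. Without YEJH-M5, where 1 member passed within YEJH, 0.727% of all genes passed, against 0.0467% in the main fit. Calls over all genes thus moved too, so a change in the member count is not by itself particular to the members. For the term limma called 3575 against 2275. Signs reversed by origin for Itga5 (-0.0619 and -0.0606), Tns2 (-0.0651 and -0.0636) and Itgb6 (0.0599 and 0.0613) with fat-pad lines alone and without both YEJG lung lines, and for Itgb1 in derived against parental lines (0.0677 in YEJH lines alone, 0.0034 without both YEJG lung lines, and -0.267 to 0.0718 with 1 line or repeat left out, the highest without YEJG). The cause was not tested. YEJH fat-pad and lung lines that share a number had correlations of -0.16 to 0.07. These values cannot decide whether such lines come from the same mouse, which the labels do not state. With line number as a replicate block, 0 members were called within YEJH, with 5 at an unadjusted p under 0.05. Over both origins 0 were called, with 4 at an unadjusted p under 0.05. A site-by-origin term without YEJG-FP could not be fitted. Depth limits Lims2, Itga1, Itgb3, Itga10 and Tns1, at about 1 CPM or less in most lines.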
